A study of Mus musculus with 6 samples.

Results

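The genes described here are the neutrophil-attracting CXC chemokines Cxcl1, Cxcl2, Cxcl3 and Cxcl5, the platelet chemokines Pf4 and Ppbp, and the receptor gene Cxcr2. They were chosen by gene symbol, and all 7 were present among the 23946 genes of the deposited expression table. The values come from RNA-sequencing of cells that were flow sorted as macrophages (CD45+CD11b+F4/80+) from omental (OM) and mesenteric (MY) fat of female C57BL/6 mice. The tissues were taken from naive mice, and 24 h and 7 d after an intraperitoneal injection of ID8, a mouse ovarian carcinoma cell line derived from the same strain. The 9 mice were processed as 3 groups of 3, with 3 omenta pooled per group, and each of the 6 conditions is 1 library. The study's wording on sample size can also be read as replicate sequencing, but the table holds 1 column per condition, and whether a column joins several libraries cannot be told from it. The sources used here name no transgene, deletion or other treatment, and both tissues were brought into suspension with an adipose tissue dissociation kit. The study asked how macrophages of the omentum, an early site of ovarian cancer metastasis, differ from those of a neighbouring fat tissue.

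The CXC chemokines with the ELR sequence before their first cysteines (CXCL1, CXCL2, CXCL3 and CXCL5, and the processed form of PPBP) bind CXCR2, the receptor through which neutrophils are drawn out of the blood. Macrophages, mesothelial cells and stromal cells make them under the control of NF-kB within hours of a stimulus such as IL-1 or TNF. PF4 lacks the ELR sequence and does not act through CXCR2. PF4 and PPBP are stored in the granules of platelets and made by megakaryocytes, and tissue macrophages of several organs also transcribe Pf4.

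Expression was given as fragments per kilobase of transcript per 1000000 mapped fragments (FPKM), a unit that can be compared between genes of different length. Low values of long genes placed the depth at about 29600000 to 54800000 fragments per library, and this estimate is used below to say on how many fragments a low value rests. Differences were taken as log2(FPKM + 1), so that those of low genes are understated, and a difference counts here when it reaches 2-fold on that scale. With 1 library per condition no test was run, and every difference describes a pair of libraries. In sorted cells in bulk, fewer cells of a type and less RNA per cell cannot be told apart. The genes of the sorted proteins were present in all 6 libraries, with Ptprc (CD45) at 106 to 208 FPKM, Itgam (CD11b) at 27.8 to 151 and Adgre1 (F4/80) at 20.5 to 135. RNA of other cells was also present and differed between the tissues: the summed FPKM of 8 mesothelial genes was 92.6 to 989 in the omentum and at most 2.44 in the mesentery, and that of 9 fibroblast genes was 232 to 1212 against at most 5.89. Lymphocyte genes were present in both, with sums of 904 to 3967 FPKM in the omentum and 524 to 1539 in the mesentery for 5 B cell genes, 22.4 to 87.5 and 379 to 838 for 5 T cell genes, and 19.3 to 423 and 1189 to 2531 for 6 NK cell genes. Genes induced by tissue dissociation, among them Fos, Egr1 and Atf3, were higher in every omental library than in every mesenteric one for 13 of 13 genes.

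Of the 7 genes, 6 lie together on mouse chromosome 5 in a cluster of 146.6 kb (NCBIM37 assembly, GENCODE M1 annotation), all on the forward strand. Cxcl5 (chr5:91188325-91190651) is followed by Ppbp (chr5:91197544-91199086), Pf4 (chr5:91201461-91202407) and Cxcl3 (chr5:91215129-91217112). After the lung chemokine gene Cxcl15, listed at 0 in all 6 libraries, and a gap in this family, come Cxcl1 (chr5:91320267-91322141) and Cxcl2 (chr5:91332897-91334935). Cxcr2 is on chromosome 1 (chr1:74200563-74207812). No other annotated gene overlaps any of the 7. Cxcl2 and Cxcl3 are close copies, and 36 of the 935 windows of 75 bases in the Cxcl3 transcript also occur in a Cxcl2 transcript, so that fragments lying wholly in these windows fit both genes, and how they were counted was not tested. Cxcl1, Cxcl5, Pf4 and Ppbp shared no such window with another coding transcript, and Cxcr2 shared 13 of 3031.

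The 150 bases before the annotated start are shown for Cxcl1, Cxcl2 and Cxcl3, since these neighbours hold the same pair of words upstream and were measured at very different levels. The sequences are from RefSeq (GRCm38.p6), forward strand, 5′ to 3′, at chr5:90891095-90891244, chr5:90903749-90903898 and chr5:90785951-90786100. The capitals mark the only 2 words of at least 8 letters that all 3 genes share within 250 bases before the start, GGGAATTTCCC, a form of the NF-kB motif, and ATAAAAGG, a form of the TATA box.
Cxcl1: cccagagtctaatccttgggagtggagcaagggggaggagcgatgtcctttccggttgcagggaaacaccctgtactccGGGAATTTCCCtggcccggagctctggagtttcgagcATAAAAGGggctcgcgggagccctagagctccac
Cxcl2: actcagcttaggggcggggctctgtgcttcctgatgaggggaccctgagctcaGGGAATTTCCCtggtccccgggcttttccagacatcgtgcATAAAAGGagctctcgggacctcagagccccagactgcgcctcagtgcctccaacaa
Cxcl3: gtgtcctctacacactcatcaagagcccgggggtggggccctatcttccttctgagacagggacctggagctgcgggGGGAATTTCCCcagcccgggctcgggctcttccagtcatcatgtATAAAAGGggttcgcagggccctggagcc
The words were searched on both strands from 250 bases before to 50 after each start, and they do not overlap each other. GGGAATTTCCC began 71 bases before the start of Cxcl1, 97 before that of Cxcl2 and 73 before that of Cxcl3, and 14 of 32851 mouse promoters (0.0426%) held it. ATAAAAGG began 34, 57 and 29 bases before the same starts, and 577 promoters (1.76%) held it. Pf4, Ppbp and Cxcr2 did not hold GGGAATTTCCC, and Ppbp held ATAAAAGG on the reverse strand. Cxcl3 held both words, and its FPKM stayed below 1 in every library. A match describes the letters and not a bound site.

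Cxcl1, Cxcl2 and Pf4 were higher in every omental library than in every mesenteric one, while Cxcl3, Cxcl5, Ppbp and Cxcr2 overlapped between the tissues. Among the 13064 expressed genes, those with at least 1 FPKM in at least 1 library, 16.7% lay wholly above in the omentum and 17.7% wholly below. Of the 7 members, 5 were expressed by this definition, and Cxcl3 and Ppbp were not. Naive omentum exceeded naive mesentery at least 2-fold for 3 members and was lower for 0, against 8.18% of expressed genes higher and 8.05% lower. At 24 h 4 members were higher in the omentum and 0 lower, with 13.9% and 10.2% of expressed genes. At 7 d 4 were higher and 0 lower, with 14.1% and 4.99%. Pf4, Cxcl1 and Cxcl2 counted at every time, joined by Cxcr2 at 24 h and by Cxcl5 at 7 d. The last 2 did not reach 2-fold with a pseudocount of 5 in place of 1, and Cxcr2 did not when the libraries were rescaled to the same sum.

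Within the omentum, 4 members (Cxcl1, Cxcl2, Pf4 and Cxcr2) were at least 2-fold higher at 24 h than in naive mice and 0 were lower, where 11.9% of expressed genes were higher and 6.45% lower. At 7 d against naive, Cxcl5 was higher and Pf4 lower, where the shares were 11.0% and 1.96%. At 7 d against 24 h, Cxcl5 was higher and Cxcl2, Pf4 and Cxcr2 were lower, where the shares were 7.03% and 4.52%. Within the mesentery, Pf4 alone of the 7 was higher at 24 h than in naive mice, with 2.80% of expressed genes higher and 1.52% lower. At 7 d against naive 0 members passed in either direction, with 0.498% and 2.29%, and at 7 d against 24 h Pf4 was lower, with 1.84% higher and 3.54% lower. The comparisons within a tissue share libraries and are not independent of each other. The plot of each gene by time shows these patterns.

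**Figure D1:**
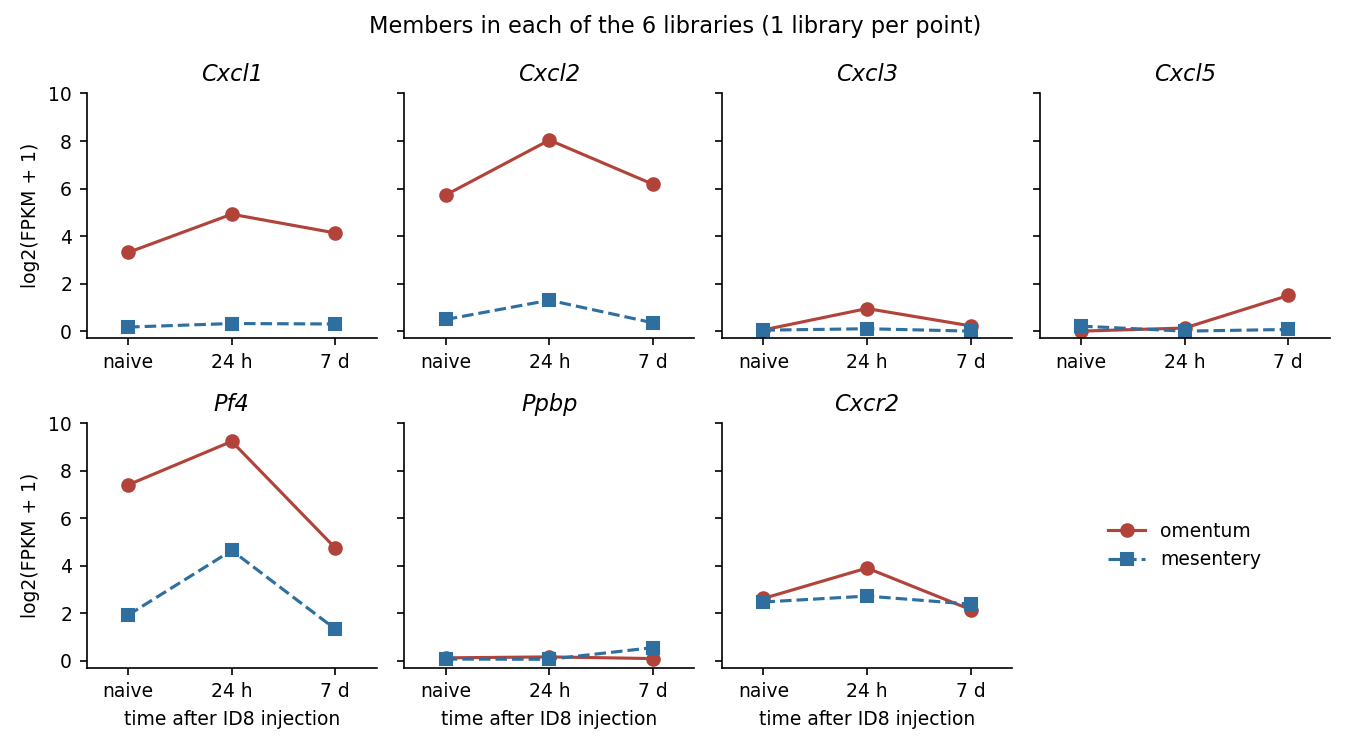
Expression of each of the 7 genes on the log2(FPKM + 1) axis against time after ID8 injection, with circles for the omentum and squares for the mesentery and 1 library per point. Cxcl1, Cxcl2 and Pf4 lie above the mesentery at all 3 times, Cxcl5 is above 1 FPKM in the omentum at 7 d alone, and Cxcr2 separates at 24 h.

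Cxcl1 encodes KC, the main murine neutrophil attractant of the family. It was measured at 8.94 FPKM in naive omentum, 29.4 at 24 h and 16.5 at 7 d. In the mesentery it was at 0.125, 0.252 and 0.229 FPKM, which correspond to about 3.5, 10 and 8.1 fragments. The tissues did not overlap, and the lowest omental value was 35.5 times the highest mesenteric one. The difference between the tissues was 3.14 (log2) in naive mice, 4.60 at 24 h (116-fold in FPKM) and 3.83 at 7 d (72.3-fold), with no fold given for naive mice because the mesenteric value lies near the floor of 3 fragments. Only 42 expressed genes (0.321%) had a wider gap between the tissues on the log2(FPKM + 1) scale. The omental level was 3.28-fold higher at 24 h than in naive mice and 1.85-fold higher at 7 d. The mesenteric differences over time lay between -0.03 and 0.15 on the log2 scale.

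Cxcl2, which encodes MIP-2, was above Cxcl1, Cxcl3 and Cxcl5 in all 6 libraries. In the omentum it was at 52.0 FPKM in naive mice, 262 at 24 h and 71.7 at 7 d, above 85.0%, 96.9% and 89.6% of expressed genes in those libraries. In the mesentery it was at 0.402, 1.45 and 0.271 FPKM. The tissues again stood apart, with the lowest omental value 35.7 times the highest mesenteric one, and 8 expressed genes (0.0612%) had a wider gap. Omentum exceeded mesentery by 5.24 (log2) in naive mice, 6.74 at 24 h and 5.84 at 7 d, which are 129-fold, 180-fold and 265-fold in FPKM. In rank, these differences were the 14th, 7th and 48th largest among the 13064 expressed genes. Omental Cxcl2 was 5.03-fold higher at 24 h than in naive mice, and it was 3.65-fold lower at 7 d than at 24 h. The difference of 7 d from naive was 0.46 in the omentum and -0.14 in the mesentery, opposite in direction and both below 2-fold. In the mesentery the 24 h library had the highest value too, 3.62-fold above naive in FPKM, but at so low a level the difference was 0.81 on the log2(FPKM + 1) scale.

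The FPKM of Cxcl2 was 5.81 times that of Cxcl1 in naive omentum, 8.91 times at 24 h and 4.33 times at 7 d. The omental 24 h library had the highest ratio of the 3.

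The cytokines and receptors that induce these chemokines were measured beside them. Of 16 such genes, 4 were at least 2-fold higher and 3 lower in naive omentum than in naive mesentery (median difference 0.01, the same as over all expressed genes), 6 higher and 1 lower at 24 h (median 0.18), and 5 higher and 1 lower at 7 d (median 0.20). The first 2 medians were -0.23 and -0.13 when the libraries were rescaled to the same sum. Il1b was at 112, 249 and 163 FPKM in the omentum and at 21.7, 20.5 and 12.2 in the mesentery, without overlap. Tnf was at 11.1, 27.1 and 15.0 FPKM against 5.89, 3.65 and 4.32. Both cytokine genes had their highest value in the omentum at 24 h, as Cxcl1 and Cxcl2 did. Il6 was at 5.21 FPKM in naive omentum and 5.02 at 7 d, and it exceeded the mesentery by 1.40 in naive mice, 3.22 at 24 h and 2.17 at 7 d on the log2 scale. Tlr2, a receptor for bacterial lipoproteins, was at 31.3, 104 and 49.3 FPKM against 7.36, 11.8 and 9.92. Over time in the omentum, 5 of the 16 were at least 2-fold higher at 24 h than in naive mice and 1 was lower, the NF-kB subunit Nfkb1, at 48.9, 21.6 and 27.8 FPKM in the omentum and 29.2, 23.8 and 20.5 in the mesentery. Another subunit, Rela, differed little between libraries (107 to 125 FPKM), while Relb was lower in the omentum, at 63.7 to 65.9 FPKM against 197 to 289.6.

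Other genes that NF-kB induces were higher in the omentum in part. Of 12, 4 were at least 2-fold higher and 0 lower in naive omentum against naive mesentery (median 0.30), 6 higher and 1 lower at 24 h (median 0.81) and 6 higher and 0 lower at 7 d (median 1.49), where the median over all expressed genes was between -0.01 and 0.01. Ier3, an early stress-response gene, was at 82.3, 491 and 305 FPKM in the omentum and at 3.96, 10.7 and 6.90 in the mesentery. Ptgs2, the inducible cyclooxygenase, was at 16.7 FPKM in the omentum at 24 h and 13.3 at 7 d and at 0.233 or less in the mesentery, and Zfp36, which shortens the life of cytokine mRNAs, was at 835, 1281 and 901 against 144, 168 and 183. The inhibitor Nfkbia was at 329, 481 and 331 FPKM against 271, 398 and 257, a difference of 0.36 or less at each time. The deubiquitinase gene Tnfaip3 overlapped between the tissues, at 33.9, 36.5 and 47.7 FPKM against 27.1, 40.2 and 29.3. Icam1 was lower in every omental library than in every mesenteric one, at 78.8, 115 and 90.1 FPKM against 131, 179.6 and 157. The gene counted as lower at 24 h was Cd83, at 101 FPKM against 261.

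Several gene groups moved with the tissue as Cxcl1 and Cxcl2 did. The 13 dissociation genes were at least 2-fold higher in the omentum for 13 genes in naive mice (median 3.41), for 13 at 24 h (3.11) and for 12 at 7 d (3.34), and their summed FPKM was 4949 to 7104 in the omentum and 760.1 to 811 in the mesentery. Over time in the omentum, 1 of 13 was at least 2-fold higher at 24 h than in naive mice (Fos, by 1.23 on the log2 scale) and 2 were lower (the heat shock genes Hspa1a, by -2.00, and Hspa1b, by -2.66), with a median of 0.32. The 8 mesothelial genes had a median difference between the tissues of 2.80, 6.03 and 6.03, and Wt1, which marks mesothelium, was listed at 0 in the mesentery in naive mice and at 7 d. The mesothelial sum was 92.6 FPKM in naive omentum, 989 at 24 h and 969.6 at 7 d. The fibroblast sum was 356, 232 and 1212 FPKM at the same times. The mesothelial list holds Krt8 and Krt18, and the study stained the keratins of these genes to detect ID8 cells in the omentum. RNA of ID8 cells was not told apart from that of mesothelium in the mesothelial sum. Neutrophil genes, described with Cxcr2 below, also moved with the tissue, with median differences of 2.79, 4.08 and 6.89. The part of any of these cells, and of the dissociation of the tissue, in the levels of Cxcl1 and Cxcl2 was not tested.

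Cxcl3, the third chemokine with the shared promoter words, was nearly silent. It was at 0.0330 FPKM in naive omentum, 0.926 at 24 h and 0.168 at 7 d, or about 0.79, 30 and 7.4 fragments. In the mesentery it was at 0.0279 and 0.0685 FPKM in naive mice and at 24 h, at or under the floor of 3 fragments, and listed at 0 at 7 d. The omental value at 24 h was the highest of the 6 and the sole one with more than 10 fragments. Cxcl2 was 262 FPKM in that same library, and the part of the windows shared with Cxcl2 in this value was not tested. Omental Cxcl3 at 24 h exceeded naive by 0.90 and the mesentery at 24 h by 0.85 on the log2(FPKM + 1) scale, both below 2-fold on that scale. These differences depend on the scale, and they were 2.95 and 2.61 with a pseudocount of 0.1, and 1.12 and 1.04 when the libraries were rescaled to the same sum. At 7 d it was 5.51-fold lower in FPKM than at 24 h.

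Cxcl5, which encodes LIX, had another time course. It was listed at 0 in naive omentum and was at 0.0954 FPKM at 24 h and 1.82 at 7 d. In the mesentery it was at 0.160 FPKM in naive mice, listed at 0 at 24 h and at 0.0482 at 7 d. The omental value at 7 d rests on about 130 to 150 fragments, depending on the transcript, and every other value on fewer than 10. It exceeded the omentum at 24 h by 1.36 (19.1-fold in FPKM), naive omentum by 1.50 and the mesentery at 7 d by 1.43 on the log2(FPKM + 1) scale. With a pseudocount of 5 these were 0.42, 0.45 and 0.43, below 2-fold. Fibroblast genes moved in the same direction: against 24 h, 8 of the 9 were at least 2-fold higher in the omentum at 7 d and 0 were lower, with a median of 1.89 against 0.05 over all expressed genes. Dcn, a matrix proteoglycan gene of fibroblasts, was at 189, 109 and 782 FPKM in the omentum and at most 2.10 in the mesentery. Genes of other cells were higher at 7 d than at 24 h too: at least 2-fold so were 6 of 6 NK cell genes (median 2.94), 6 of 7 mast cell genes (2.59), 5 of 5 B cell genes (1.41) and 3 of 5 T cell genes (2.02). At 7 d against naive omentum, 5 of 9 fibroblast genes were at least 2-fold higher and 0 lower (median 1.05). In that comparison 0 genes of the NK, mast, B and T cell lists were higher. Their medians were -0.94, 0.01, -0.71 and 0.02. The part of these cells in the Cxcl5 value was not tested.

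**Figure D2:**
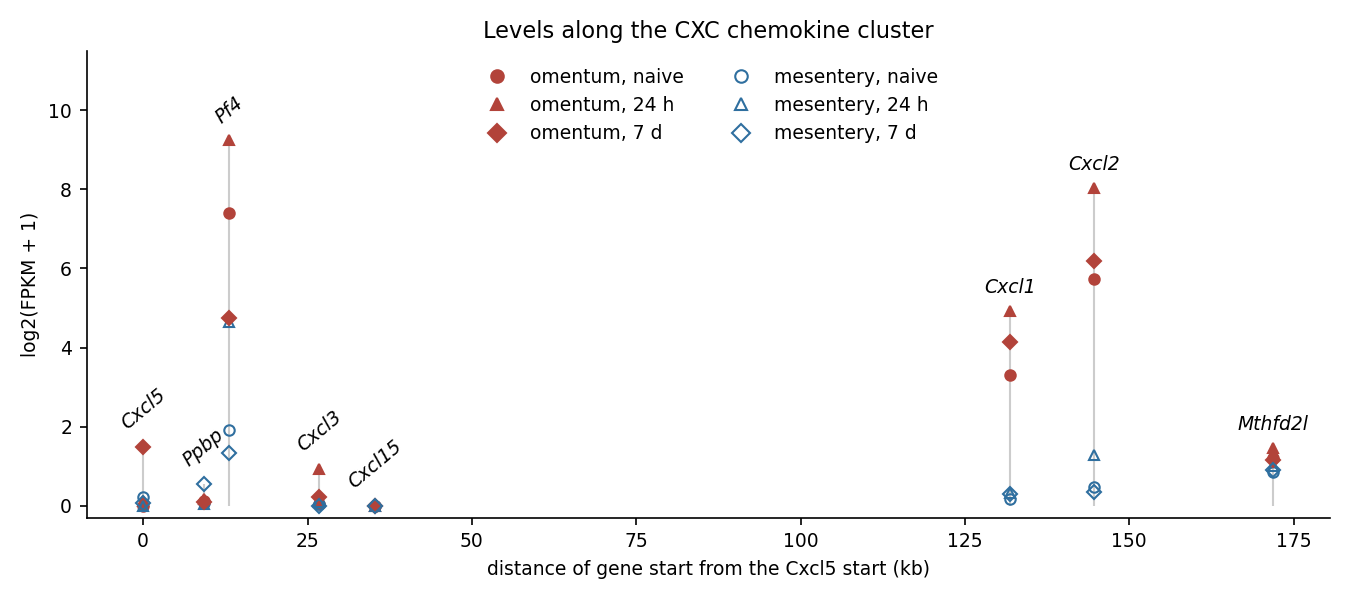
Expression on the log2(FPKM + 1) axis against the distance of each gene's start from that of Cxcl5 in kb, for the cluster on chromosome 5 and the genes Cxcl15 and Mthfd2l. Filled symbols are omental libraries and open symbols mesenteric ones. Pf4 sits between genes near 0, and Cxcl1 and Cxcl2 sit next to each other.

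Along the cluster, the adjacent genes Cxcl1 and Cxcl2 were both higher in the omentum and highest there at 24 h, whereas Pf4 differed from its neighbours. Pf4 lies between Ppbp and Cxcl3, which stayed below 1 FPKM in every library, with gene starts 9.2 and 26.8 kb from that of Cxcl5 against 13.1 kb for Pf4. The next gene beyond Cxcl2, Mthfd2l, was at 0.811 to 1.78 FPKM. Of 10 neighbouring genes on chromosome 5, the highest value was 5.13 FPKM, of the growth factor gene Btc in the omentum at 24 h. Another growth factor gene, Areg, was at 1.08, 1.89 and 1.93 FPKM in the omentum and at most 0.0842 in the mesentery. The albumin family genes Alb and Afm were listed at 0 throughout.

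Pf4, the gene of platelet factor 4, was the highest of the 7 members in 3 of the 6 libraries and differed most between times. It was at 167 FPKM in naive omentum, 601 at 24 h and 25.8 at 7 d. In the mesentery it was at 2.79, 23.9 and 1.52 FPKM, resting on about 40, 490 and 27 fragments. The omentum was higher at each time, yet its lowest value, at 7 d, was 1.08 times the highest mesenteric one, at 24 h. The difference between the tissues was 5.47 (log2) in naive mice, 4.59 at 24 h and 3.41 at 7 d, or 60.0-fold, 25.1-fold and 17.0-fold in FPKM. The first of these ranked 10th from the top among the expressed genes.

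In both tissues Pf4 was highest at 24 h and lowest at 7 d. Against naive, the 24 h library was 3.59-fold higher in the omentum and 8.59-fold higher in the mesentery. From 24 h to 7 d the difference was -4.49 in the omentum (23.3-fold lower), where 2 expressed genes had a more negative one, and -3.31 in the mesentery (15.8-fold lower), which ranked 21st from the bottom. At 7 d Pf4 was 6.48-fold lower than in naive mice in the omentum, the 22nd lowest difference of the expressed genes, and 1.84-fold lower in the mesentery. Cxcl2 did not share the low value at 7 d in the omentum, so that the ratio of Pf4 to Cxcl2 in FPKM was 3.22 in naive mice, 2.30 at 24 h and 0.360 at 7 d.

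Ppbp, whose product is the other main platelet chemokine, was at 0.0866, 0.120 and 0.0660 FPKM in the omentum and at 0.0495, 0.0403 and 0.463 in the mesentery. The value of mesentery at 7 d rests on about 19 fragments, and the other values on 1.6 to 4.2. Genes of platelets and megakaryocytes were low as a group, and 7 of 14 did not reach 1 FPKM in any library. Their summed FPKM was 25.4 or less in the omentum and 30.0 to 45.0 in the mesentery. Gene by gene they were mixed, with 2 of 14 wholly above in the omentum, 3 wholly below and 9 overlapping. Of the defining receptor genes, Itga2b was at most at 1.31 FPKM, Gp9 at 0.587 and Gp1ba at 0.219. Itgb3 reached 5.96 and Gp1bb 2.07 FPKM, both in the mesentery, and both were lower in every omental library than in every mesenteric one. The platelet granule gene Treml1 was listed at 0 in 4 libraries. The highest values were those of Clec1b, the largest part of the mesenteric sum at each time, at 9.37, 21.2 and 13.5 FPKM in the mesentery and 0.806 or less in the omentum, and of P2ry12, at 16.3 FPKM in the omentum at 24 h. The median difference of the 7 platelet genes that were expressed between the tissues was -0.74, -0.73 and -0.47.

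Macrophage genes were highest at 24 h, as Pf4 was. Of 10 macrophage genes, 10 were at least 2-fold higher in the omentum at 24 h than in naive mice (median 2.27), and 10 were lower at 7 d than at 24 h (median -2.38), with 0 of 10 past 2-fold between 7 d and naive (median -0.41). In the mesentery 7 of 10 were higher at 24 h (median 1.33) and 4 lower from 24 h to 7 d (median -0.90). C1qa, a complement gene of tissue macrophages, was at 484, 3282 and 259 FPKM in the omentum and at 315, 795 and 315 in the mesentery. Genes of lymphocytes and mast cells were lower at that time. Against naive omentum, 5 of 5 B cell genes (median -2.02) and 4 of 5 T cell genes (-1.77) were at least 2-fold lower at 24 h. So were 6 of 6 NK cell genes (-3.87) and 5 of 7 mast cell genes (-2.48), and 0 genes of these lists were higher. Neutrophil genes went the other way, with 11 of 15 higher and 2 lower (median 1.12). Of 8 monocyte genes, 3 were higher and 2 lower (median 0.61). The NK cell sum was 423, 19.3 and 232 FPKM in the omentum and the B cell sum 3967, 904 and 2447. The part of a changed macrophage share in the values of Pf4, Cxcl2 and Cxcr2 was not tested.

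In the omentum most genes of tissue-resident macrophages were, as Pf4 was, lower at 7 d than in naive mice. Against naive omentum, 8 of 13 were at least 2-fold higher and 0 lower at 24 h (median 1.26), while 1 was higher and 9 lower at 7 d (median -2.19). Against naive mesentery, 6 were higher and 0 lower at 24 h (median 0.70), while 1 was higher and 2 lower at 7 d (median -0.03). From 24 h to 7 d in the mesentery 0 were higher and 6 lower (median -0.91). Folr2, a folate receptor gene, was at 81.6, 220.0 and 14.5 FPKM in the omentum and at 9.86, 25.7 and 8.45 in the mesentery. Lyve1, a hyaluronan receptor gene, was at 53.5, 55.3 and 5.96 FPKM against 2.26, 1.79 and 1.04. Cbr2 was at 112, 315 and 17.4 FPKM against 13.5, 13.4 and 4.30. Gas6 was the exception among the 13, at 26.3, 69.9 and 139 FPKM in the omentum. Between the tissues, 10 of the 13 were higher in naive omentum and 0 lower (median 2.93), 10 higher and 1 lower at 24 h (3.05), and 5 higher and 2 lower at 7 d (0.84). Timd4, which marks long-lived macrophages, went against the rest at 24 h, with 13.5 FPKM in the omentum and 38.8 in the mesentery.

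**Figure D3:**
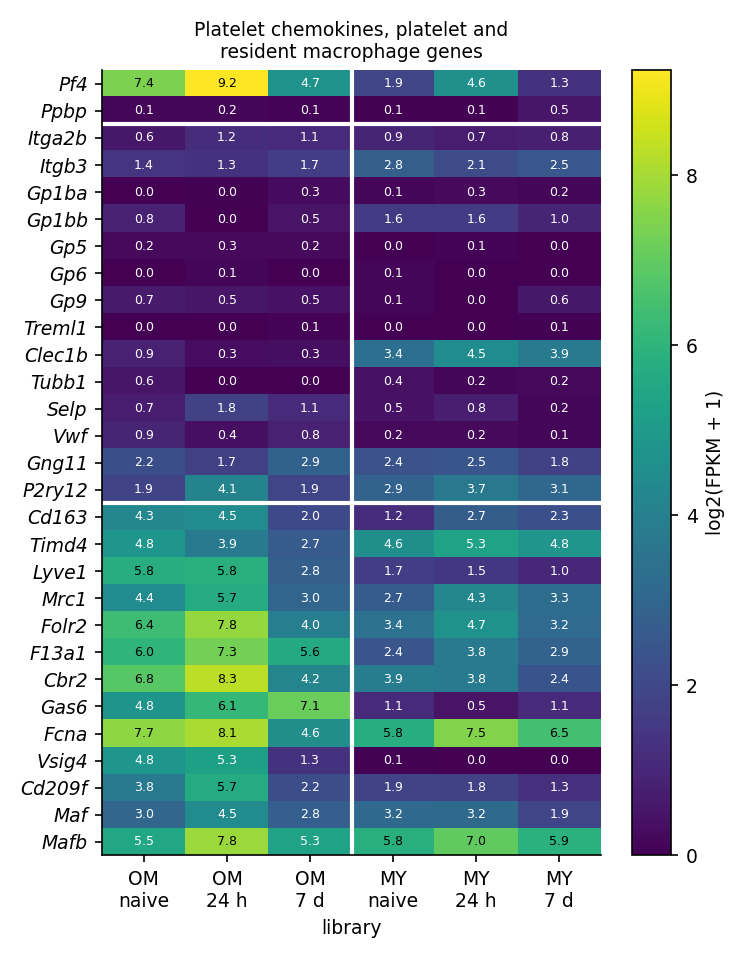
Levels of Pf4 and Ppbp, of 14 platelet genes and of 13 genes of tissue-resident macrophages in the 6 libraries, coloured and printed on the log2(FPKM + 1) scale. Pf4 and most resident macrophage genes are low in the omentum at 7 d, and 7 of the 14 platelet genes stay below 1 FPKM in all 6 libraries.

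Cxcr2 was measured at several FPKM in every library of both tissues, and the tissues overlapped. It was at 5.14 FPKM in naive omentum, 14.0 at 24 h and 3.43 at 7 d, and at 4.56, 5.59 and 4.20 in the mesentery. The lowest of these values, in the omentum at 7 d, rests on about 380 to 530 fragments. The omental values spanned the mesenteric ones, with 24 h above and 7 d below all 3. The difference between the tissues was 0.14 (log2) in naive mice, 1.18 at 24 h (2.50-fold in FPKM) and -0.23 at 7 d. When the libraries were rescaled to the same sum, the difference in naive mice was -0.05 and that at 24 h was 0.93, below 2-fold. Within the omentum, 24 h was 2.71-fold above naive and 7 d was 4.07-fold below 24 h. With a pseudocount of 5 the differences of omental 24 h from the mesentery and from naive were 0.84 and 0.90, below 2-fold. In the mesentery the 24 h library was 1.23-fold above naive.

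Neutrophils carry CXCR2, and their granule genes were abundant in the sorted omental cells. Of the 16 neutrophil genes listed, 15 were in the table, and 14 of these were higher in every omental library than in every mesenteric one. Their summed FPKM was 8149.8, 18860.4 and 21001 in the omentum and 951, 786 and 246 in the mesentery. S100a8, a calgranulin of neutrophils and monocytes, was at 3020.2, 7826 and 8381 FPKM against 288, 219 and 32.1. At least 2-fold higher in the omentum were 14 of 15 in naive mice (median 2.79), 13 at 24 h (4.08) and 14 at 7 d (6.89), with 0 lower at any time. Elane and Mpo, genes of neutrophil precursors, were listed at 0 in the mesentery at 7 d, and Elane also at 24 h.

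Cxcr2 did not follow the sum of these genes between the tissues, nor in the omentum at 7 d. In naive mice the sum was 8149.8 FPKM in the omentum and 951 in the mesentery, while Cxcr2 was at 5.14 and 4.56 FPKM. The ratio of S100a8 to Cxcr2 in FPKM was 587 in naive omentum, 560.5 at 24 h and 2444 at 7 d, and 63.2, 39.2 and 7.64 in the mesentery. Against 24 h in the omentum, Cxcr2 was 4.07-fold lower at 7 d, while the neutrophil genes were at least 2-fold higher for 2 of 15 and lower for 4 (median 0.10). Csf3r, the G-CSF receptor gene, also had its highest omental value at 24 h, at 6.21, 24.1 and 9.36 FPKM in the omentum and at 5.99, 13.4 and 6.46 in the mesentery. Mmp9 had a like time course, at 64.8, 168 and 64.1 FPKM in the omentum. The part of neutrophils in the Cxcr2 values was not tested.

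**Figure D4:**
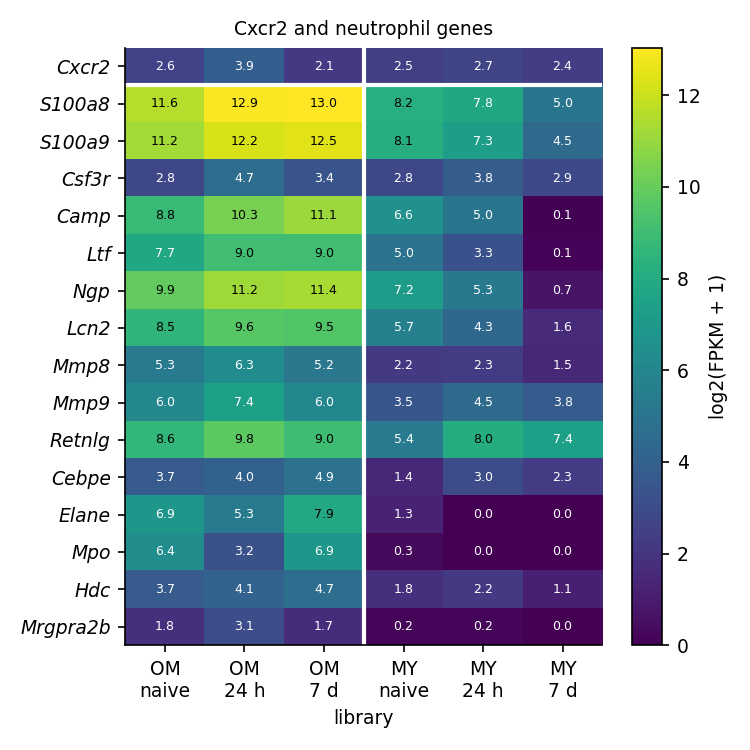
Levels of Cxcr2 and of 15 neutrophil genes in the 6 libraries, coloured and printed on the log2(FPKM + 1) scale. The granule genes are high in all omental libraries, whereas Cxcr2 is at 2.1 to 3.9 throughout.

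The other CXC receptors did not share the pattern of Cxcr2. Cxcr1, the closest relative of Cxcr2, was at 0.152 FPKM or less in every library. Cxcr4, the receptor of CXCL12, was at 12.2 to 25.6 FPKM, with its lowest omental value at 24 h. Of 7 other CXC and atypical receptors, 0 were at least 2-fold higher in the omentum at 24 h than in naive mice and 3 were lower, with a median of -0.95. The lymphocyte receptor genes Cxcr5 and Cxcr6 were among these, at 122 and 11.9 FPKM in naive omentum and 18.3 and 1.45 at 24 h. Ackr1, the atypical receptor that binds ELR chemokines without signalling, was at 2.37 FPKM or less.

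The 6 ligands were also set against the other 9 CXC chemokines of the mouse. Pf4 made up 42.2% of the summed FPKM of the 15 genes in naive omentum, 42.4% at 24 h and 5.88% at 7 d. In the mesentery its share was 1.47%, 8.30% and 1.01%. Cxcl2 made up 13.1%, 18.5% and 16.3% in the omentum and 0.504% or less in the mesentery. Pf4 was thus the top CXC ligand of the omentum in naive mice and at 24 h, followed by the B cell attractant Cxcl13 and by Cxcl2, while Cxcl10, an interferon-induced T cell attractant, was the top one at 7 d. In the mesentery the transmembrane chemokine Cxcl16 was the top one at all 3 times, at 131, 201 and 115 FPKM. The summed FPKM of the 15 genes was 396, 1417 and 439 in the omentum and 189.6, 288 and 150.3 in the mesentery, highest at 24 h in both.

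Of the 9 other CXC ligands, 3 were at least 2-fold higher and 2 lower in naive omentum than in naive mesentery (median 0.24), and 7 were higher and 0 lower at 24 h and again at 7 d (medians 2.21 and 2.22). Within the omentum, 6 of 9 were higher at 24 h than in naive mice and 0 were lower (median 2.26). Cxcl10 was at 12.1, 124 and 116 FPKM in the omentum, similar at 24 h and 7 d, whereas Cxcl2 was lower at 7 d. In the mesentery Cxcl10 was at 35.1, 21.2 and 13.9 FPKM.

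The genes most like each member were found as those with the smallest root mean square difference between profiles over the 6 libraries, after each profile was centred on its own mean, among 7994 genes with at least 10 FPKM in at least 1 library. For Cxcl1 they were the ribonuclease gene Rnase4 (0.23 on the log2 scale), the polo-like kinase gene Plk2 (0.25) and Tinagl1 (0.26). For Cxcl2 they were the monocyte attractants Ccl2 (0.61) and Ccl7 (0.67) and the dissociation gene Fos (0.67). Ccl2 was at 29.0, 130.4 and 55.2 FPKM in the omentum and at 1.47, 0.937 and 0.403 in the mesentery, and Ccl7 at 23.7, 125 and 26.4 against 0.931, 0.243 and 0.239. For Pf4 they were Fn1 (0.79), which encodes fibronectin, Fcrls (0.84) and the LPS co-receptor gene Cd14 (0.97), and Fcrls was at 105, 169 and 8.27 FPKM in the omentum. For Cxcr2 they were Tmem176a (0.16), Ppfia4 (0.17) and Ap2a2 (0.18). Cxcl1 and Cxcl2 differed from each other by 1.12 on this measure and Pf4 and Cxcl2 by 1.41. These exceed the distances to the nearest genes, which are the smallest by definition. Among 7995 genes, Cxcl1 ranked 31st from Cxcl2, and Cxcl2 ranked 346th from Cxcl1. Cxcl2 ranked 36th from Pf4, and Pf4 ranked 86th from Cxcl2. The distances were taken on log2(FPKM + 1), with no other pseudocount tried, and that scale understates the contrast of genes with low mesenteric values. Cxcl1 was at 0.125, 0.252 and 0.229 FPKM in the mesentery and Rnase4 at 2.54, 2.83 and 2.74. In the omentum they were at 8.94, 29.4 and 16.5 FPKM and at 31.0, 111 and 82.0. The 6 libraries share the 2 tissues and 3 times, and these distances are a description.

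**Figure D5:**
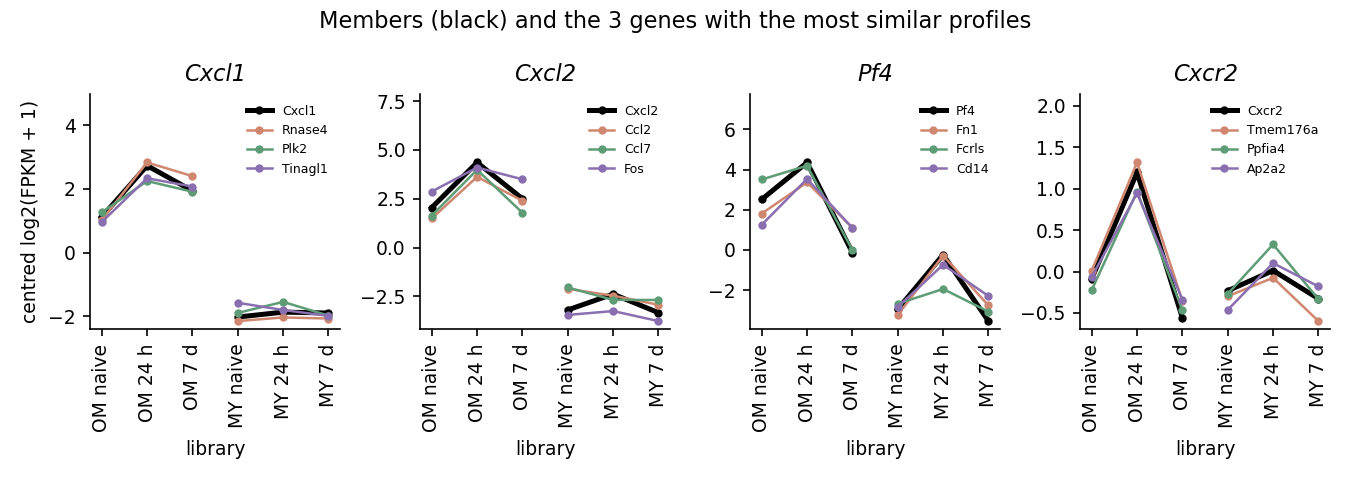
Profiles of Cxcl1, Cxcl2, Pf4 and Cxcr2 (black) and of the 3 genes nearest to each over the 6 libraries, as log2(FPKM + 1) centred on the mean of each gene, with a separate vertical range in each panel. Cxcl1 and Cxcl2 and their neighbours stand apart by tissue, and Cxcr2 and its neighbours are highest in the omentum at 24 h.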

How the data were processed

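RNA of sorted macrophages was sequenced in 6 libraries, 1 per condition, grouped by the labels. Per the methods, FastQC 0.11.4 was used for read quality and STAR 2.4.2a for alignment to NCBI37 (mm9) with UCSC gene models, and Cufflinks gave the FPKM. The table the authors deposited holds these FPKM per gene symbol, and the values of a library sum to between 526887 and 713863. Read counts and fold changes of the authors were not used here.

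Differences were computed on log2(FPKM + 1) in Python 3.11.15 (pandas 2.3.3, numpy 2.4.6, scipy 1.17.1, and matplotlib 3.10.9 for the figures). A gene counted as expressed when any library reached 1 FPKM, and a difference of 2-fold was counted. The number of fragments behind a value was estimated from the commonest product of FPKM and length among low values of genes with a single transcript above 2500 bases, at an assumed fragment length of 200 bases. It covers counting error only, and folds are not given where a library is at or near 3 fragments or fewer. With 1 library per condition no test was run. The calculations were tested on simulated data.

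The 7 genes were taken by symbol, and other genes are named from lists of related chemokines, receptors, inducers, neighbours and cell type markers, by level or size of difference, or as the 3 nearest profiles. One listed gene is not reported here. The members and lists were chosen with earlier results of these data known. Alternatives were pseudocounts of 0.1 and 5, rescaling by the median ratio or to a sum of 1000000, and other filters. Positions are from NCBIM37 with GENCODE M1. Promoters are from RefSeq on GRCm38.p6, where 6 of the 7 genes had one.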

Additional observations from a re-analysis of the deposited data

Results flagged for a closer look

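The difference of Cxcl2 between 7 d after ID8 injection and naive mice was 0.46 (log2) in the omentum, from 52.0 to 71.7 FPKM, and -0.14 in the mesentery, from 0.402 to 0.271 FPKM. It stood out because the libraries of the tissues moved in opposite directions. The difference between the tissues was not tested, since each value comes from 1 library, and the mesenteric values rest on about 13 to 24 and 11 to 21 fragments. Neither difference reached 2-fold.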

How the results depend on the processing

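Each condition has 1 library, so that none of these values has a replicate error, and low values rest on few fragments. No paired analysis was possible with 1 library per condition. A fit of tissue with time as a term, which would take the times as replicates, was not run. The number of members at least 2-fold apart stayed within 1.5 times in 32 of 38 recalculations, and that of members wholly above in the omentum was 3 in each. A pseudocount of 0.1 gave 3 members in place of 1 for MY 24 h against naive, where Cxcl2 and Cxcl5 joined Pf4, 3 in place of 1 for MY 7 d against 24 h, where Cxcl2 and Ppbp joined it, and 1 (Ppbp) in place of 0 for MY 7 d against naive. It also added Cxcl3 in the comparisons of OM 24 h and OM 7 d with each other, with naive OM and with MY of the same time, Ppbp (lower) for OM against MY at 7 d and Cxcl5 (lower) for OM against MY in naive mice. A pseudocount of 5 gave 1 in place of 2 for OM 7 d against naive, without Cxcl5, and 3 in place of 4 for OM 7 d against 24 h and against MY 7 d, without Cxcl5, and for OM 24 h against naive and against MY 24 h, without Cxcr2. Rescaling to a sum of 1000000 gave 2 in place of 1 for MY 24 h against naive and for MY 7 d against 24 h, with Cxcl2. It put Cxcl3 in place of Cxcr2 for OM 24 h against MY 24 h and added it for OM 24 h against naive. Of the 252 differences of single members, 44 moved by over 1.5-fold and 0 reversed among those past 2-fold. Of 684 list medians, recalculated as an addition after the data had been seen, 62 moved.

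The number of expressed genes past 2-fold moved by over 1.5 times in 24 of 54 recalculations. With a pseudocount of 0.1 it was 1242 in place of 565 for MY 24 h against naive, 912 in place of 364 for MY 7 d against naive, 1492 in place of 702 for MY 7 d against 24 h, 3599 in place of 2396 for OM 24 h against naive, 2399 in place of 1508 for OM 7 d against 24 h, and 3189 in place of 2119 between the naive libraries. With a pseudocount of 5 these 6 numbers were 213, 143, 255, 1165, 677 and 1033, and those for OM 7 d against naive, OM against MY at 24 h and OM against MY at 7 d were 699, 1625 and 1174 in place of 1688, 3145 and 2494. With the genes limited to those that reached 1 FPKM in every library, the 9 numbers, in the same order, were 329, 204, 460, 1424, 770, 1174, 629, 1713 and 1023. Rescaling to a sum of 1000000 moved the median of all genes to -0.19 between the naive libraries, -0.27 between tissues at 24 h, -0.17 for OM 24 h against naive, 0.12 for OM 7 d against naive and 0.36 for OM 7 d against 24 h. It moved the share of higher genes among those past 2-fold from 50.4% to 38.6%, 57.6% to 41.2%, 64.9% to 50.4% and 60.9% to 81.8% in the first 3 and the last of these, from 64.8% to 49.4% for MY 24 h against naive and from 34.2% to 46.1% for MY 7 d against 24 h.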
